A study of Mus musculus with 6 samples.

Results

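The 10 genes described here encode the enzymes that write and remove DNA methylation and the core of Polycomb repressive complex 2 (PRC2). They are *Dnmt1*, *Uhrf1*, *Dnmt3a*, *Dnmt3b*, *Tet1*, *Tet2*, *Tet3*, *Ezh2*, *Suz12* and *Eed*, taken by name from the gene annotation of the arrays. No measured value enters that rule, but the group was chosen with earlier results of these data known. All 10 were on the array, by 19 of its 55681 probes, out of 36163 gene names in all. B1a cells of the peritoneal cavity (PC B1a cells, sorted by flow cytometry) from p40-/-CD25-/- mice were compared with those from p40-/-CD25+/- mice, both on the C57Bl/6 background, female and 7 weeks old, with 3 arrays per genotype. The arrays are called knockout 1 to 3 and control 1 to 3 below. Mice of both genotypes lack p40, the subunit shared by IL-12 and IL-23, and the comparison is between loss of both copies and of 1 copy of *Il2ra*, which encodes CD25, the alpha chain of the IL-2 receptor. Both alleles are germline deletions present in every cell of the mouse, so the B1a cells of the p40-/-CD25-/- mice also developed among other CD25-deficient cells. Each array carries RNA from 1 sample, the labels do not say how many mice gave that sample, and the p-values measure the spread between these samples.

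DNA methylation is copied after each round of DNA replication, when UHRF1 recognises the half-methylated daughter strands and recruits the maintenance methyltransferase DNMT1. DNMT3A and DNMT3B place new methyl groups, and the TET dioxygenases oxidise 5-methylcytosine, which opens a route to its removal. PRC2 methylates lysine 27 of histone H3 through its catalytic subunit EZH2, and needs SUZ12 and EED for assembly and activity. In B cells, *Uhrf1*, *Dnmt1* and *Ezh2* are known to be high in proliferating cells such as those of the germinal centre, and their promoters are known to be bound by E2F factors.

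Promoter sequences of these genes are shown first, since the E2F-type motif in them is shared across both branches of the group. The sequences are those of RefSeq in GRCm38.p6, from 250 bases before to 50 bases after an annotated transcript start, and all 10 genes matched an entry by symbol. Searched on both strands, the 8-base motifs TTTGGCGC, TTTCCCGC, TTTGCCGC and TTTCGCGC were found in at least 1 entry of *Uhrf1*, *Dnmt1*, *Ezh2* and *Suz12*. Of all 27025 genes with a promoter entry, 2.60% had at least 1 of these motifs in an entry. *Dnmt1* has 3 entries and *Uhrf1* has 2, and the motif was in 1 entry of each. None of the 4 motifs was in an entry of *Dnmt3a*, *Dnmt3b*, *Tet1*, *Tet2*, *Tet3* or *Eed*, which says only that these letters are not in these windows. A match is a description of the letters and not of binding. The 4 promoters that hold the motif and that of *Eed*, which holds none, are printed 5′ to 3′ on the strand of the gene with the motif in capitals. They lie at chr17:56304063-56304362 on the plus strand (*Uhrf1*), chr9:20952574-20952873 on the minus strand (*Dnmt1*), chr6:47594981-47595280 on the minus strand (*Ezh2*), chr11:79992856-79993155 on the plus strand (*Suz12*) and chr7:89980927-89981226 on the minus strand (*Eed*).
Uhrf1: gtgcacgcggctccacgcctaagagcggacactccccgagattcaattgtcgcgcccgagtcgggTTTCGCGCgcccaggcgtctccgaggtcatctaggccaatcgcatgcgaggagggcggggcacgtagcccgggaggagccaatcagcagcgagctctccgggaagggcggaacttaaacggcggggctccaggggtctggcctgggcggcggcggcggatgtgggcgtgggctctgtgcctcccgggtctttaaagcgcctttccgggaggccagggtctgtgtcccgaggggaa
Dnmt1: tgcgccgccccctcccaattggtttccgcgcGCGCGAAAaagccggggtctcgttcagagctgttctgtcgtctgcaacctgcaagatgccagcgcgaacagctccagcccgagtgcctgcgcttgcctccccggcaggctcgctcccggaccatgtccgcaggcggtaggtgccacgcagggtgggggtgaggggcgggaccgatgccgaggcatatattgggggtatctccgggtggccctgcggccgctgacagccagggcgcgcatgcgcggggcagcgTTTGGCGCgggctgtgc
Ezh2: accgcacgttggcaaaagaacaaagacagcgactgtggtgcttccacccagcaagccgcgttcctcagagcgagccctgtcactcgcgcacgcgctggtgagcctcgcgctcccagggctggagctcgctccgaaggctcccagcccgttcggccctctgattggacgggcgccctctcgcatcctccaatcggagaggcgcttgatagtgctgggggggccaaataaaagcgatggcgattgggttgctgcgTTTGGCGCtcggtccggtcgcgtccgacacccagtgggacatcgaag
Suz12: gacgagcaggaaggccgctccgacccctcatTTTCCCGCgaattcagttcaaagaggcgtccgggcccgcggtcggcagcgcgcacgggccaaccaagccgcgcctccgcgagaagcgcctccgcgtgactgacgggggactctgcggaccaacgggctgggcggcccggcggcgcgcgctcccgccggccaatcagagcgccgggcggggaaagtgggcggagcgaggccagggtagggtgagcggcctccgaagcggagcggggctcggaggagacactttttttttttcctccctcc
Eed: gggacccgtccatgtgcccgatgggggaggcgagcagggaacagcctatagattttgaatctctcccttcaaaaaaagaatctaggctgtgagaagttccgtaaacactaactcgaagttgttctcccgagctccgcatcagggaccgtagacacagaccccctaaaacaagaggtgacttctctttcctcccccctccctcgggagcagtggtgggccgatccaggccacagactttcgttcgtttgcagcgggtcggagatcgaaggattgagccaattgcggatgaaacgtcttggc

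The *Uhrf1* motif started 185 bases before the annotated start, and that of *Suz12* 219 bases before it. *Dnmt1* had a motif on the opposite strand at -219 and another at 34 bases past the start, and the *Ezh2* motif began at base 4 of the transcript. These positions count from the start of the printed entry. The other annotated starts of *Dnmt1* and *Uhrf1* lie further upstream, so that the motifs of these genes lie past them. These windows were also rich in CpG, the dinucleotide that the methyltransferases act on. The printed entry of *Uhrf1* and that of *Dnmt1* held 33 CpG each, *Ezh2* held 31, *Suz12* held 41 and *Eed* held 17, against a median of 7 over all entries. Of all entries, 68.6% held fewer than that of *Eed*. The entries without the motif held 2 and 12 for *Dnmt1* and 12 for *Uhrf1*. *Tet2* had the most among the 10 genes, with 57. The CCAAT box, searched as CCAAT, was in at least 1 entry of 6 of the 10 genes and of 41.1% of all genes, and the GC box, searched as GGGCGG, in at least 1 entry of 8 of the 10 genes and of 38.2% of all genes.

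Every level below is the log2 of the processed spot signal minus the 75th percentile of its array, so 0 is the 75th percentile of all spots and levels are compared between arrays for the same probe, not between probes. A gene is represented by its brightest tested probe. Levels of the probes differ with their own hybridisation, and no order of the 10 genes by abundance is given. Signals were weaker on the knockout arrays, where the 75th percentile lay between 66.5 (knockout 2) and 162, against 252 to 272 on the control arrays. The lowest value well above background was also higher there, at -2.47 on knockout 2, -3.50 on knockout 1 and -3.67 on knockout 3, against -4.53 to -4.09 on the control arrays. All 8 B1a marker genes were detected, 2 of them higher in p40-/-CD25-/- samples at an unadjusted p of at most 0.05 (25%, against 11.6% of all genes), *Spn* (0.42) and *Bhlhe41* (0.55), and none lower. Every knockout value was above every control value for 3 of the 8, *Bhlhe41*, *Cd79b* (0.28) and *Itgam* (0.79), against 14.7% of all genes. The other 5 overlapped, *Cd79a*, *Ms4a1* and *Cd5* among them. *Il2ra* was 2.60-fold lower in p40-/-CD25-/- samples and well above background on all 6 arrays, so that its probe does not show the deletion as a missing signal, and the same holds for *Il12b*, deleted in both genotypes. All 6 arrays were on 1 slide and in 1 scan.

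Of the 10 genes, 4 were lower in p40-/-CD25-/- B1a cells at an unadjusted p of at most 0.05 in limma, namely *Uhrf1*, *Dnmt1*, *Dnmt3a* and *Eed*, and none was higher. This is 40% of the group, where 13.6% of all 18253 genes tested were lower and 11.6% higher at that threshold. The 3 knockout arrays lay below the 3 control arrays for the same 4 genes, against 21.6% of all genes, and no representing probe lay above, against 14.7%. None of the 10 reached an adjusted p under 0.05, which 7 of all tested genes did (0.0383%). None changed 2-fold by its representing probe, against 3.52% of all genes. The median log2 difference of the 10 was -0.33, against -0.12 for all genes; the difference of the medians was -0.21. Ranked among the differences of all tested genes, *Dnmt3a* had 6.23% of genes below it, *Dnmt1* 7.51% and *Eed* 13.9%, while *Ezh2* stood at 51.8% and *Tet3* at 86.7%. In RNA from sorted cells, a smaller fraction of expressing cells and less RNA per cell cannot be told apart.

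**Figure D1:**
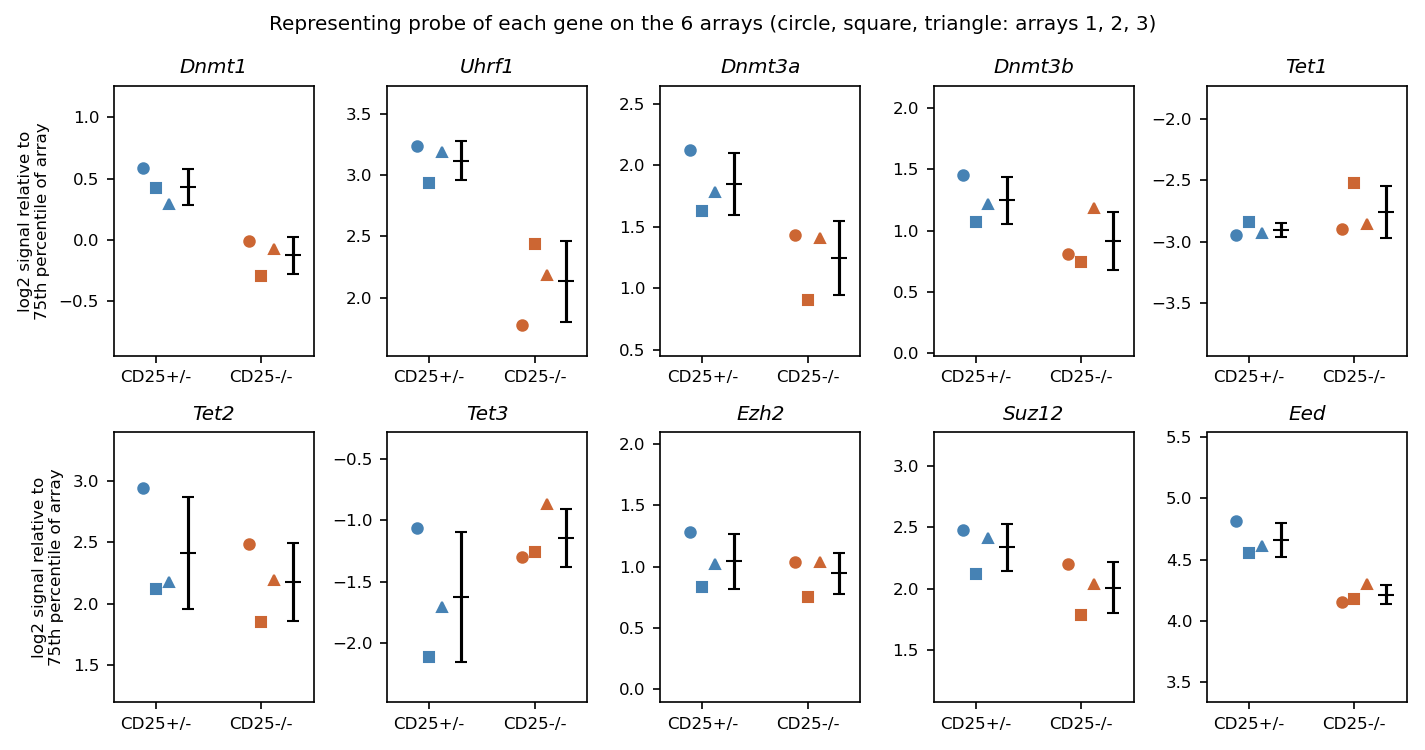
Level of the representing probe of each gene (vertical axis, log2 signal relative to the 75th percentile of the array, each panel 2.2 units high and centred on its own gene) on the 3 p40-/-CD25+/- arrays (blue) and the 3 p40-/-CD25-/- arrays (orange), with the mean and SD in black. The orange points lie below all blue points for *Dnmt1*, *Uhrf1*, *Dnmt3a* and *Eed* and overlap them for the other 6 genes.

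The genes that maintain methylation, *Uhrf1* and *Dnmt1*, had the smallest p-values of the group. *Uhrf1*, the reader of half-methylated DNA, was 3.23, 2.94 and 3.18 on control 1, 2 and 3, against 1.78, 2.43 and 2.19 on knockout 1, 2 and 3. The highest knockout value was below the lowest control value, and knockout 1 was the farthest. The means were 2.13 ± 0.33 (SD, n = 3) in p40-/-CD25-/- and 3.12 ± 0.16 (SD, n = 3) in p40-/-CD25+/- B1a cells, a 1.98-fold lower level (log2 difference -0.98, standard error 0.20, unadjusted p = 0.00165, limma adjusted p = 0.0975). The 95% interval ran from -1.46 to -0.51, and 1.60% of all tested genes had a more negative difference. *Uhrf1* passed the adjusted p under 3 of 18 alternatives, with normexp correction and scaling to the 75th percentile (0.000793), with array weights (0.0109) and with a trend and robust estimation (0.0224). In the first of these settings *Dnmt3a* (0.0188) and *Eed* (0.0151) passed it too, and with array weights *Dnmt1* (0.0400) and *Eed* (0.0278). Of all 18253 genes, 6484 and 4477 passed the adjusted p in these 2 settings.

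The probe behind this value lies at chr17:56462770-56462829 (mm9) and begins at base 3430 of the transcript. A dimmer *Uhrf1* probe begins at base 985 and its 60 bases span 654 bases of the genome at chr17:56451668-56452321 (mm9), so that it crosses an exon junction. Its sequence is shown because it is the only other reading of the gene with the largest difference of the group.
Uhrf1 base 985: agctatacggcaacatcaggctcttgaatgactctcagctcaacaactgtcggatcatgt
It was -2.58, -3.96 and -2.70 on the control arrays, against -3.78, -2.14 and -3.55 on the knockout arrays, with no separation of the genotypes. It was not well above background on 1 of the 3 knockout arrays. The log2 difference of this dim probe was -0.08, with a 95% interval from -1.29 to 1.13 that includes the value of the bright probe, and its sign turned under 6 of 16 alternatives. With normexp correction and scaling to the 75th percentile, where the bright probe had its smallest adjusted p, this probe was higher in p40-/-CD25-/- samples (0.48, unadjusted p = 0.0300). Taking the mean of both probes gave *Uhrf1* a difference of -0.53 (unadjusted p = 0.168).

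*Dnmt1*, the maintenance methyltransferase, was 0.59, 0.42 and 0.30 on the control arrays, against -0.01, -0.30 and -0.07 on the knockout arrays. The 2 groups were separate, with knockout 2 the lowest. The difference was 1.47-fold (log2 -0.56, standard error 0.15, unadjusted p = 0.00792, limma adjusted p = 0.123). It was the one gene of the group that kept an unadjusted p of at most 0.05 under all 18 alternatives, with differences between -0.63 and -0.42. Its single probe covers 369 bases at chr9:20711973-20712341 (mm9) on the minus strand with 60 bases of sequence, and thus crosses a junction.

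Of the de novo methyltransferases, *Dnmt3a* was lower and *Dnmt3b* did not pass in the main setting. *Dnmt3a* was 2.13, 1.63 and 1.79 on the control arrays, against 1.43, 0.90 and 1.41 on the knockout arrays. Its single probe was again without overlap and with knockout 2 the lowest. It was 1.52-fold lower (log2 -0.60, standard error 0.21, unadjusted p = 0.0235, limma adjusted p = 0.155). That p rose to 0.0829 without control 1, to 0.0543 without knockout 2 and to 0.0567 with the methods' t-test, while the difference stayed negative. *Dnmt3b* was 1.46, 1.07 and 1.21 on the control arrays, against 0.81, 0.74 and 1.18 on the knockout arrays, where knockout 3 lay among the control values. Its difference was -0.33 (95% interval -0.76 to 0.09, limma adjusted p = 0.272). Its unadjusted p was at most 0.05 under 3 of 18 alternatives, with normexp correction and scaling to the 75th percentile (0.0465), with array weights (0.0286) and without knockout 3 (0.0376). The other 2 *Dnmt3b* probes, which begin at bases 2950 and 3843 of the transcript against 4255 for the bright probe, differed by 0.03 and -0.11 and overlapped between genotypes. The 95% intervals of all 3 *Dnmt3b* probes include 0.

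**Figure D2:**
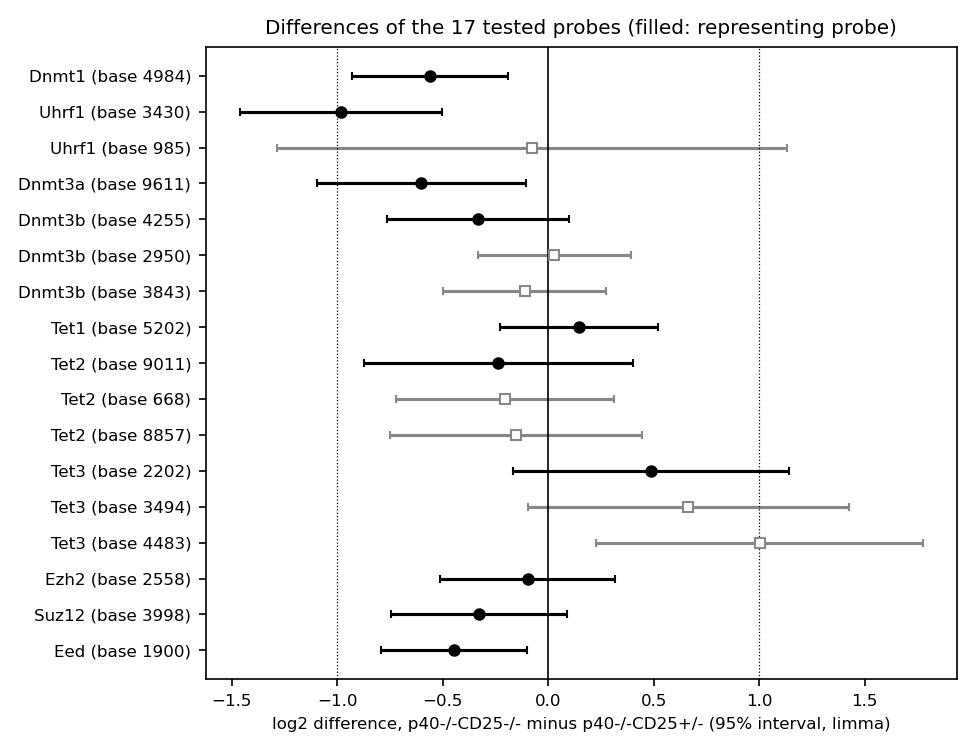
Log2 difference between p40-/-CD25-/- and p40-/-CD25+/- B1a cells (horizontal axis) with its 95% interval from limma for each of the 17 tested probes of the 10 genes, named by gene and by the first base of the probe in its transcript, with dotted lines at a 2-fold difference. The intervals of *Dnmt1*, the bright *Uhrf1* probe, *Dnmt3a* and *Eed* lie below 0, and that of the *Tet3* probe at base 4483 lies above it.

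None of the TET genes passed an unadjusted p of 0.05 by its representing probe in the main setting. Under alternatives *Tet3* was higher at that threshold with normexp correction and scaling to the 75th percentile (0.45, unadjusted p = 0.0318), with the mean of its probes (0.72, 0.0117) and without control 1 (0.77, 0.0133), and *Tet1* with the same normexp setting (0.49, 0.0223). *Tet3* was the gene of the group with the highest difference, and all 3 of its probes were higher on average in p40-/-CD25-/- B1a cells. The probes lie on the minus strand of chromosome 6 (mm9), at chr6:83352743-83352802 (from base 2202 of the transcript), chr6:83319720-83319779 (from base 3494) and chr6:83318731-83318790 (from base 4483). Their sequences are shown because the gene has 3 tested probes, and the 95% intervals of their differences overlap. Differences between the probes were not tested.
Tet3 base 2202: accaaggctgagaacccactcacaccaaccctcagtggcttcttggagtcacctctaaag
Tet3 base 3494: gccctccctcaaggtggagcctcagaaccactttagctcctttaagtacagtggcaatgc
Tet3 base 4483: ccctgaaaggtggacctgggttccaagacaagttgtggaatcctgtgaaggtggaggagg
The brightest, at base 2202, was -1.06, -2.11 and -1.71 on the control arrays, against -1.30, -1.25 and -0.87 on the knockout arrays, with control 1 among the knockout values. Its difference was 0.49 (95% interval -0.17 to 1.14, limma adjusted p = 0.288). The probe at base 3494 differed by 0.66 with overlap (95% interval -0.10 to 1.42, limma adjusted p = 0.243), and its unadjusted p was at most 0.05 under 3 of 17 alternatives.

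The *Tet3* probe at base 4483 was -2.98, -2.71 and -2.82 on the control arrays, against -2.38, -1.05 and -2.08 on the knockout arrays. The knockout arrays were all above the control arrays, knockout 2 by the most. The difference was 1.00 on the log2 scale (2.00-fold, standard error 0.33, unadjusted p = 0.0180, limma adjusted p = 0.144 over all probes), where 12.6% of all tested probes were higher at an unadjusted p of at most 0.05 and 0.0808% passed the adjusted p. Without knockout 2, the dimmest array, it was 0.61 (unadjusted p = 0.00999), and without control 1 its unadjusted p was 0.0554. The control values of this probe lie above the lowest well-above-background value of the control arrays but below that of knockout 2, and the part of the array brightness in the difference was not tested. The unadjusted p was also above 0.05 with the methods' t-test (0.0713) and with quantile normalization after normexp correction, where the difference was 0.27.

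*Tet1* was near the background. Of its 3 probes, 1 was tested, at -2.94, -2.84 and -2.93 on the control arrays, against -2.90, -2.52 and -2.86 on the knockout arrays. These values overlapped and differed by 0.15 (limma adjusted p = 0.543), on a probe not well above background on 1 knockout array, and the sign turned with quantile normalization (-0.12), with normexp and quantile normalization (-0.12) and in the deposited values (-0.13). The other 2 *Tet1* probes were not tested, since they were well above background on 2 and 0 control arrays and on 1 knockout array each. *Tet2*, the TET gene that is often mutated in blood cancers, was 2.94, 2.12 and 2.18 on the control arrays, against 2.49, 1.85 and 2.20 on the knockout arrays, with the highest value on control 1 and overlap of the rest. Its 3 probes differed by -0.24, -0.15 and -0.21, and the representing probe had a 95% interval from -0.87 to 0.40 (limma adjusted p = 0.571).

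Of the 3 core subunits of PRC2, *Eed* alone passed an unadjusted p of 0.05. *Eed*, which binds the trimethylated lysine and stimulates the enzyme, was 4.82, 4.55 and 4.61 on the control arrays, against 4.16, 4.18 and 4.30 on the knockout arrays. Both sets of arrays, read by the single probe of the gene, were tight and did not overlap. It was 1.36-fold lower (log2 -0.45, standard error 0.14, unadjusted p = 0.0159, limma adjusted p = 0.139). The unadjusted p was above 0.05 without control 1 (0.0612) and without knockout 1 (0.0532), and under quantile normalization the difference was -0.25 (0.0935). It was also above 0.05 with normexp and quantile normalization and in the deposited values, and at most 0.05 under 13 of 18 alternatives.

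*Suz12*, which holds the complex together, was 2.48, 2.12 and 2.41 on the control arrays, against 2.20, 1.79 and 2.04 on the knockout arrays. The highest knockout value was above the lowest control value, and the difference of -0.33 did not pass (95% interval -0.74 to 0.08, limma adjusted p = 0.264). Under 2 of 18 alternatives its unadjusted p was at most 0.05, with normexp correction and scaling to the 75th percentile (0.0206) and with the replicate block (0.0437). *Ezh2*, the methyltransferase itself, was 1.28, 0.83 and 1.02 on the control arrays, against 1.04, 0.75 and 1.04 on the knockout arrays, with the 2 groups interleaved. Its difference was -0.10 (standard error 0.17, limma adjusted p = 0.718), and the 95% interval from -0.51 to 0.31 leaves room for a decrease of the size seen for *Eed*. Differences between the 10 genes were not tested against each other.

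Set beside the promoters, *Uhrf1* and *Dnmt1*, which hold an E2F-type motif, were lower at an unadjusted p of at most 0.05. *Suz12* and *Ezh2*, which hold one too, did not pass. *Dnmt3a* and *Eed*, whose entries lack these letters, passed, and *Dnmt3b* and the TET genes, which lack them too, did not. A link of the motif to the differences was not tested, and passing in 1 gene but not in another is not a difference between them. Other genes of cell division were lower on the same arrays. Of a list of 21 proliferation genes 20 were tested, and 16 were lower and none higher at an unadjusted p of at most 0.05 (80%, against 13.6% of all genes), with a median of -0.61. Of the 17 genes of this list well above background on all 6 arrays, 13 were lower (76.5%, against 13.3% of all genes so detected), with a median of -0.59. The median level of that list was 2.31, 1.55 and 1.78 on the control arrays, against 0.76, 1.20 and 1.22 on the knockout arrays. Knockout 1 was the lowest for that list, for *Uhrf1* and for *Eed*. Knockout 2, the dimmest array, was the lowest for *Dnmt1*, for *Dnmt3a* and for the median of the 10 genes (0.83, against 1.24 on knockout 1 and 1.29 on knockout 3). *Mki67*, which coats chromosomes in mitosis, differed by -0.85, *Top2a*, the topoisomerase of dividing cells, by -1.06, and *Pcna*, the sliding clamp of replication that also binds DNMT1, by -0.49. *E2f1* differed by -0.64 and the replicative helicase subunit *Mcm5* by -0.62. These 5 genes did not overlap between genotypes, and their limma adjusted p-values lay between 0.0771 and 0.146. Every knockout value was below every control value for 15 of the 20 tested genes of the list, against 21.6% of all genes. *Birc5*, *Rrm2* and *Ccna2* were also past 2-fold, at -1.43, -1.07 and -1.07. With normexp correction and scaling to the 75th percentile, *Top2a* differed by -0.35 (unadjusted p = 0.0875). *Ccna2* was at -0.46 in that setting, and its unadjusted p was above 0.05 without control 1, knockout 1 or knockout 3 (0.0880, 0.0751 and 0.0576). *Cdk1* and *Cdc6* were not well above background on any knockout array. For their fold, each knockout array entered at its own value or at the lowest detectable value of that array, whichever was higher. So read, *Cdk1* and *Cdc6* were 1.81-fold and 1.22-fold lower, without an interval. Both fitted differences turned positive with normexp correction and scaling to the 75th percentile (0.08 and 0.35). The part of proliferating cells in the differences of the methylation genes was not tested.

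Profiles over the 6 arrays most like that of *Uhrf1*, among 9901 named genes well above background on all of them, were those of *Asf1b*, *Polr3g* and *Ctsb*, with Pearson's r of 0.996, 0.995 and 0.995. For *Dnmt1* they were *Txndc9*, *Ptplad1* and *Kptn* (r of 0.997, 0.997 and 0.995). For *Ezh2* they were *Prkd2*, *Casd1* and *Tfdp2* (0.994, 0.992 and 0.990). With 6 arrays of 2 groups and this many genes these are descriptions, and all points share the 2 genotypes and the brightness of each array.

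Partners of the methylation machinery had differences between -0.47 and -0.01. Of 12 genes for partners and readers of methylated DNA, 11 were tested and all 11 had a negative difference, as had 60.2% of all genes tested. *Uhrf2* and *Zbtb33* were lower at an unadjusted p of at most 0.05, 18.2% of the list against 13.6% of all genes. *Uhrf2*, the paralog of *Uhrf1*, was 1.34-fold lower without overlap (limma adjusted p = 0.175), but its unadjusted p was at most 0.05 under only 7 of 18 alternatives. It differed by -0.22 with quantile normalization (unadjusted p = 0.125), by -0.18 with normexp and quantile normalization (0.103) and by -0.019 with the mean of its probes (0.899), and each fit without 1 of control 1, 2 or 3 or knockout 1 or 2 had a p above 0.05 (0.0590 to 0.120). *Hells*, a chromatin remodeler needed for methylation of repeats, differed by -0.47 (unadjusted p = 0.102), and its sign turned with normexp correction and scaling to the 75th percentile (0.26), while its unadjusted p was at most 0.05 under 4 of 18 alternatives, quantile normalization among them (-0.67). *Dnmt3l*, the cofactor of the de novo enzymes in germ cells, was not tested, with 1 of 6 arrays well above background.

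Removal of modified cytosine was mixed. Of 12 genes, 11 were tested, with a median of 0.00, 3 lower and none higher at an unadjusted p of at most 0.05 (27.3% lower, against 13.6% of all genes lower and 11.6% higher). Among these 3 were *Gadd45b* (-0.59) and *Cxxc5* (-0.44). *Tdg*, the glycosylase that excises oxidised methylcytosine, differed by 0.28 with overlap (limma adjusted p = 0.559). Of 9 genes that supply the methyl donor S-adenosylmethionine, only *Mthfd2* was lower at that threshold (-0.41), a share of 11.1% that is below the 13.6% of all genes. *Mat2a*, which makes the donor, differed by -0.21, or by -0.52 with normexp correction and scaling to the 75th percentile (unadjusted p = 0.0131), and *Ahcy*, which clears its product, by -0.05, whose sign turned under 6 alternatives.

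**Figure D3:**
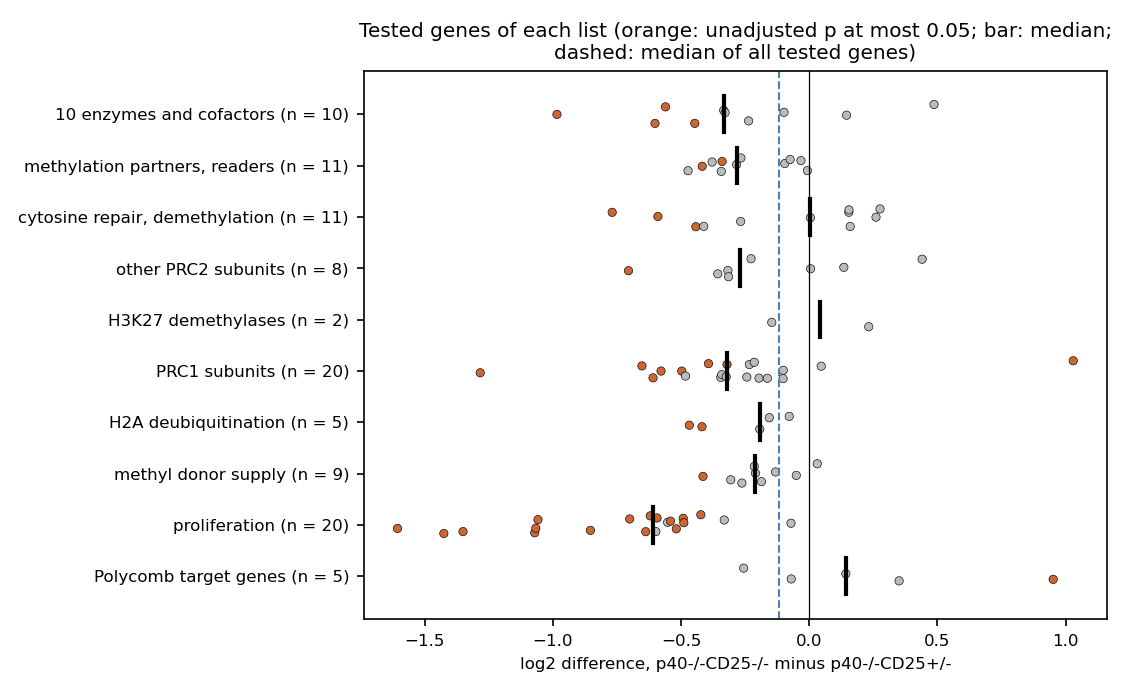
Log2 difference of each tested gene in 10 lists (horizontal axis), 1 point per gene and orange where the unadjusted limma p was at most 0.05, with the median of each list as a black bar and the median of all tested genes, -0.12, as a dashed line. The 10 methylation and PRC2 genes have a median of -0.33 and the proliferation genes one of -0.61.

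The other PRC2 subunits gave 1 call among 8 genes tested, *Phf19* (-0.70, limma adjusted p = 0.110), which brings PRC2 to chromatin. That is 12.5% of the list, below the 13.6% of all genes. *Ezh1*, the paralog of *Ezh2* in resting cells, was 5.72, 5.63 and 5.59 on the control arrays, against 5.33, 5.05 and 5.50 on the knockout arrays. The groups did not overlap, but the difference of -0.36 had an unadjusted p of 0.0611. That p was at most 0.05 under 4 of 18 alternatives, and with normexp correction and scaling to the 75th percentile the difference was -0.73 (unadjusted p = 0.00216, adjusted p = 0.0200 in limma). The histone-binding subunits *Rbbp4* and *Rbbp7* differed by -0.23 and -0.31, and *Jarid2*, a recruiting subunit, by 0.14, whose sign turned under 3 alternatives, and none of the 3 passed in the main setting. With the same normexp setting *Rbbp4* differed by -0.51 (unadjusted p = 0.0214) and *Rbbp7* by -0.65 (0.00535). The demethylases of the same lysine, *Kdm6a* and *Kdm6b*, differed by 0.23 and -0.15 (limma adjusted p = 0.522 and 0.508), the latter turning to 0.0016 with quantile normalization and the former at 0.54 with array weights (unadjusted p = 0.0155).

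Among 20 tested subunits of PRC1, the complex that ubiquitinates histone H2A, 7 were lower and 1 was higher at an unadjusted p of at most 0.05 (35% and 5%, against 13.6% and 11.6% of all genes), with a median of -0.32. Of the 17 well above background on all 6 arrays, 6 were lower (35.3%, against 13.3% of all genes so detected) and none was higher. Past 2-fold by the fitted value, though near the detection limit, were *Cbx2*, a chromodomain subunit that reads methylated lysine 27, and *Pcgf3*, a RING finger subunit. *Cbx2* was -1.17, -0.98 and -1.13 on the control arrays, against -3.16, -2.59 and -1.39 on the knockout arrays, without overlap but with knockout 3 close to the control values. Its probe passed the detection filter through the control arrays alone, since it was not well above background on knockout 2, so the fitted difference of -1.28 (limma adjusted p = 0.140) rests partly on an undetected value. With normexp correction the difference was -0.22 after scaling to the 75th percentile (unadjusted p = 0.280) and -0.63 after quantile normalization, and the unadjusted p was also above 0.05 with the methods' t-test (0.0710) and without knockout 2 (0.0536). *Pcgf3* went the other way, at -3.72, -4.14 and -3.68 on the control arrays, against -2.81, -2.84 and -2.80 on the knockout arrays. These values do not overlap and differ by 1.03 (unadjusted p = 0.000403, limma adjusted p = 0.0773), at a level near the background of the dimmer arrays, where knockout 2 was not well above background. With normexp correction and quantile normalization it differed by 0.21 (unadjusted p = 0.0564). The catalytic subunit *Rnf2* and its partner *Bmi1* differed by -0.21 and -0.35 and did not pass in the main setting, but did with normexp correction and scaling to the 75th percentile (-0.44, unadjusted p = 0.0412, and -0.58, 0.0113). Of 5 genes for removal of that ubiquitin, *Usp16* (-0.47) and *Asxl1* (-0.42) were lower at an unadjusted p of at most 0.05 (40% of 5 genes, against 13.6% of all genes).

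Genes that these systems are known to silence gave little signal. Of 12 germline genes known to be silenced by promoter methylation, only *Brdt* was tested, and it differed by 0.11 (limma adjusted p = 0.674). The other 11 did not reach the detection filter in either genotype. Of 13 developmental genes known as Polycomb targets, 5 were tested and 1, *Nkx2-2*, was higher at an unadjusted p of at most 0.05 (0.95, limma adjusted p = 0.123), against 11.6% of all genes. *Cdkn2a*, the classic Polycomb target in dividing cells, differed by -0.07 with a standard error of 0.63. DNA methylation and histone marks themselves were not measured on these arrays.

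Markers of other cells were compared in the same way. Of 5 tested T cell genes, *Cd3e* (0.60) and *Cd3d* (1.41) were higher at an unadjusted p of at most 0.05 (40%, against 11.6% of all genes) and *Cd3g* differed by -0.28. The summed linear level of the 5 was between 8.85 and 14.6 times the 75th percentile on the control and between 12.8 and 15.6 times it on the knockout arrays. *Cd8a* and *Cd8b1* did not pass the detection filter. All 8 macrophage genes were tested, with summed levels of 18.5 to 42.4 on the control arrays and, overlapping these, of at most 34.0 on the knockout arrays, and *Lyz2* was lower (-1.08), which is 12.5% of them against 13.6% of all genes. Of 4 plasma cell genes, *Xbp1* (-0.52) and *Igj* (-1.92) were lower at an unadjusted p of at most 0.05 (50%, against 13.6% of all genes), with sums of 44.5 to 53.6 and 26.4 to 37.2 on control and knockout arrays, and *Sdc1* was well above background on no knockout array. Of 6 granulocyte and mast cell genes only *Cpa3* and *Mcpt4* were tested, neither passing that threshold, at sums of 0.24 to 2.63 and 0.22 to 0.41. The sums of the 8 B1a genes were 1185 to 1225 and 1266 to 1462. The part of these cells in the differences of the 10 genes was not tested.

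The size of each difference varied with the processing, and its direction less so. Over 12 other ways of processing or testing (11 for *Tet1*, which was not well above background on all 6 arrays) and 6 fits that each left out 1 array, *Dnmt1*, *Dnmt3a*, *Dnmt3b*, *Uhrf1*, *Suz12* and *Eed* stayed negative and *Tet3* positive, while *Tet1*, *Tet2* and *Ezh2* turned in 3, 2 and 1 of the alternatives. *Uhrf1* lay between -1.26 and -0.53 and *Eed* between -0.74 and -0.24.

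**Figure D4:**
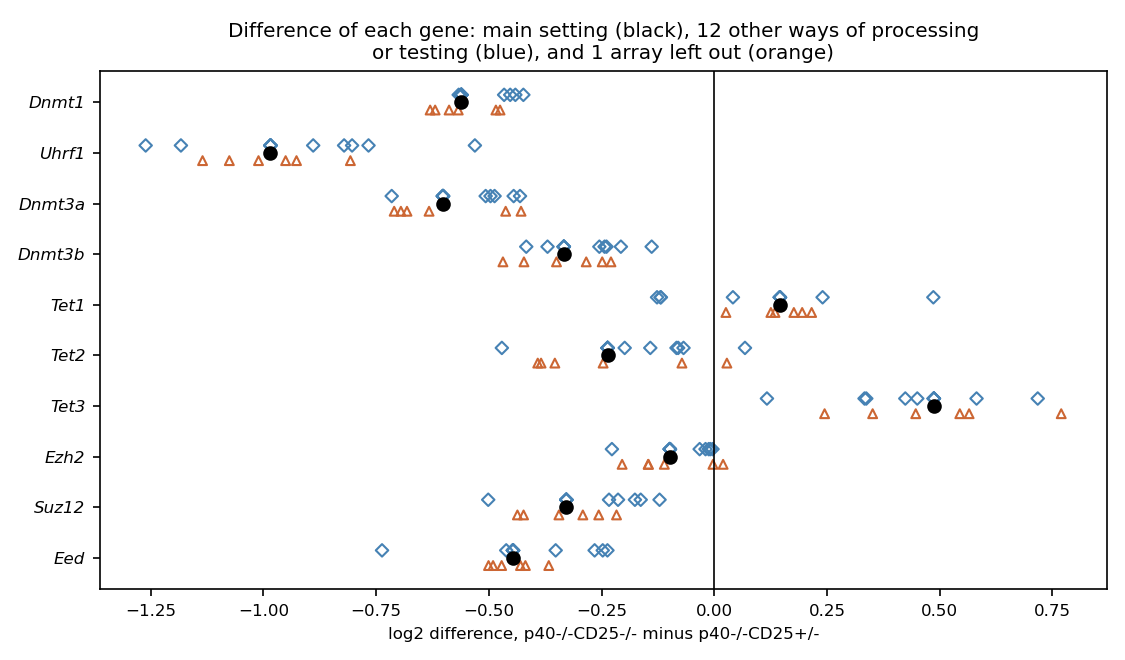
Log2 difference between p40-/-CD25-/- and p40-/-CD25+/- B1a cells (horizontal axis) of each of the 10 genes in the main setting (black), under 12 other ways of processing or testing, or 11 for *Tet1* (blue diamonds) and with each array left out (orange triangles). All points of *Dnmt1* lie between -0.63 and -0.42, and those of *Tet1*, *Tet2* and *Ezh2* fall on both sides of 0.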

How the data were processed

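Total RNA of sorted PC B1a cells was hybridized to Agilent arrays in 1 colour (Cy3), 3 arrays per genotype. For each array the authors deposited spot intensities and quality marks from Agilent Feature Extraction 10.7.1.1 (as the submitters' processing notes name it), background corrected by that software and unscaled between arrays, and a quantile normalized table in log2 units. Here log2 intensity was scaled to the 75th percentile over 59305 non-control spots, outlier spots (163 to 251 per array) were dropped and spots of a probe averaged. A probe was tested if all 3 arrays of a genotype marked it well above background and each genotype had at least 2 measured arrays, which left 24754 probes of 18253 genes. The brightest tested probe stood for a gene. Dimmer arrays raise the lowest detectable level, and no spot reached saturation. Precision is limited by the number of arrays, and the smallest exact permutation p that 3 and 3 arrays can give is 0.1.

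The test between genotypes was that of limma 3.58.1 (lmFit, eBayes) under R 4.3.3 (case minus control, two-sided, no covariates), with Benjamini-Hochberg adjustment over all genes, or over all probes for single probes. The code was tested on simulated data. The scaling behind the study's 2-fold analysis is not given in the sources used here (that the deposited table is quantile normalized was read from its values), and the 2-fold threshold with p of at most 0.05 is the study's. The 10 genes and all lists were chosen with earlier results of these data known. Named beside the 10 were fixed genes of the related lists, list genes past 2-fold with an unadjusted p of at most 0.05, the 3 profiles most like *Uhrf1*, *Dnmt1* and *Ezh2*, and the deleted genes. *Zbtb33*, *Gadd45b*, *Cxxc5*, *Mthfd2*, *Phf19*, *Usp16*, *Asxl1*, *Brdt*, *Nkx2-2*, *Cdkn2a*, *Dnmt3l* and the marker genes fall outside that rule and were named after their values were seen. A few genes covered by the rule or the lists are not reported here. Probe coordinates are in mm9 as in the array files, and promoter sequences are from RefSeq, GRCm38.p6. Alternatives were 2 normexp settings (offset 50), quantile normalization, the median of detected probes, the deposited log2 values, 2 other filters, the mean of probes, the methods' t-test, a trend with robust estimation, array weights, a replicate block and each array left out. Flow cytometry and PCR were not analysed here.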

Additional observations from a re-analysis of the deposited data

How the results depend on the processing

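Of 44 single-gene or single-probe differences, 29 kept their sign under all alternatives run, among them 7 of the 10 genes. Of the 10 genes, 4 were lower at an unadjusted p of at most 0.05 in the main setting, 6 with normexp and the 75th percentile, 3 or 4 under the other normalizations, and between 2 (without control 1) and 5 with an array left out. All genes lower at that threshold made up 13.6% in the main setting, 8.40% with the median of detected probes and 27.9% with normexp and the 75th percentile, and those higher 11.6%, 15.2% and 23.2%. Higher genes thus outnumbered lower ones with the median of detected probes, as they did without a filter (33.1% against 3.45%). The same held without control 3 (8.02% against 6.02%) and without knockout 1 (10.6% against 9.91%). The median difference of the 10 stayed negative, between -0.43 and -0.23 with an array left out. No gene of the 10 was past 2-fold in the main setting, and 1, *Uhrf1*, was with normexp and the 75th percentile, with array weights and without control 2, knockout 2 or knockout 3 (a range of 0 to 1 over the arrays). The 7 genes of the whole array with an adjusted p under 0.05 became 23 with quantile normalization, 6484 with normexp and the 75th percentile, 13 with normexp and quantile normalization, 22 in the deposited values, 2 without a filter on dim probes, 27 with detection on all 6 arrays, 11 with the mean of probes, 2 with the methods' t-test, 754 with a trend and robust estimation, 4477 with array weights and 2 to 92 with an array left out. The 643 genes past 2-fold became 192 and 162 with the normexp settings, 10640 without a filter and 530 to 1112 with an array left out, and 92 and 1112 were both without knockout 3. The causes were not tested.

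Samples that share a replicate number deviated together with correlations of 0.19, 0.06 and 0.09, so the number was not taken as a pairing. With the replicate block, 4 genes of the whole array had an adjusted p under 0.05, and 5 of the 10 genes were lower at an unadjusted p of at most 0.05, *Suz12* being the one added.

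Signs turned as follows. With quantile normalization the differences were -0.12 (*Tet1*), 0.0016 (*Kdm6b*), 0.047 (*Ahcy*) and -0.048 (*Dnmt3b*, base 2950), and in the deposited values -0.13 (*Tet1*), 0.038 (*Ahcy*) and -0.043 (*Dnmt3b*, base 2950). With normexp and the 75th percentile they were -0.046 (*Jarid2*), 0.26 (*Hells*), 0.084 (*Cdk1*), 0.35 (*Cdc6*), 0.35 (*Il12b*), 0.11 (*Dnmt3b*, base 3843) and 0.48 (*Uhrf1*, base 985), and with normexp and quantile normalization -0.12 (*Tet1*) and 0.0051 (*Ahcy*). Scaling on the median gave 0.044 (*Ahcy*), 0.073 (*Il12b*) and 0.017 (*Uhrf1*, base 985), the mean of probes 0.00043 (*Ahcy*), and array weights 0.068 (*Tet2*) and 0.062 (*Tet2*, base 8857). With an array left out, *Tet2* ranged from -0.39 to 0.028, *Ezh2* from -0.20 to 0.020, *Jarid2* from -0.14 to 0.38, *Tdg* from -0.076 to 0.55, *Ahcy* from -0.11 to 0.055, *Il12b* from -0.16 to 0.20, *Dnmt3b* at base 2950 from -0.030 to 0.13, *Uhrf1* at base 985 from -0.59 to 0.23 and *Tet2* at base 8857 from -0.34 to 0.062. Signal over background limits *Tet1*, the dim *Uhrf1* probe, *Tet3*, *Cbx2* and *Pcgf3*, which lie near the lowest detectable level of knockout 2.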
